A study of Drosophila melanogaster with 3 samples.

Results

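The genes described here are those of the *Drosophila* proteasome. They were taken as every gene in the count table whose symbol, looked up by its FlyBase ID, begins with Prosalpha, Prosbeta, Rpn or Rpt and a digit. The rule gave 48 of the 17558 genes in the table. Of these, 32 encode the core subunits of the particle, and 16 carry an R or T suffix that marks a paralogue of a core subunit. The rule reads symbols alone.

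All counts came from heads of untreated adult flies of wild type genotype, kept at 25°C. Heads were taken after CO2 anaesthesia, and polyadenylated RNA was sequenced in 3 replicate libraries that form a single group. The series text names the strain CantonS, whereas the methods of the study call their wild type w1118, so the strain of these libraries could not be settled. Age and sex were not given for them. Nothing states whether the replicates came from separate cultures, so the p-values below measure only the spread between these libraries, which may be technical. Since no treated or mutant library was used here, the comparisons are between genes, between groups of subunits and between the replicates.

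The proteasome is the main protease of the cytosol and nucleus, and it degrades proteins that have been tagged with ubiquitin. Its 20S core is a barrel of alpha rings, which gate the entrance, and beta rings, which hold the proteolytic sites. A 19S cap sits on the barrel. The base of the cap carries a ring of ATPases that unfold the substrate, and the lid carries the enzyme that removes the ubiquitin chain. Most core subunits are essential, while many of the R and T paralogues are known in *Drosophila* from the male germline.

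Core subunits were well counted. They took 0.186%, 0.284% and 0.183% of all counts in replicates 1, 2 and 3, a mean of 0.218% ± 0.0576 (SD, n = 3). The libraries held 8332583, 7349123 and 6299265 counts, and the 95% Wilson interval of the share reached from 0.183% to 0.189% in replicate 1, from 0.280% to 0.288% in replicate 2 and from 0.179% to 0.186% in replicate 3. These intervals cover counting error only. Replicate 2 therefore stood above both other libraries, while the intervals of replicates 1 and 3 overlapped. The 16 paralogues together had 4, 23 and 8 counts in the same libraries. This was 35 counts in sum, against 47914 for the core subunits.

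Of the 32 core subunits, 31 were counted in every library. Their median level was 65.0 ± 15.4 CPM, that is counts per 1000000 counts of the library (SD, n = 3). Prosbeta3 was the lowest with 42.8 CPM and Rpn2 the highest with 130.4 CPM. Prosalpha1 was the one core subunit with 0 counts in all libraries, and it is described with its duplicate below.

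Levels of different genes were compared per length, as CPM per kilobase (kb) of annotated exon. On this scale the core subunits lay between 36.8 ± 6.59 CPM per kb (SD, n = 3) for Rpt5 and 86.8 ± 19.9 CPM per kb for Prosbeta5, a 2.36-fold range. The SD of log2 CPM per kb over the 31 genes was 0.30. Among 9901 detected genes with an annotated length, whose median was 12.3 CPM per kb, the core subunits held percentiles 81.4 to 92.0, with a median of 86.3. In the order of levels, 27 of 30 pairs of neighbours differed by no more than 1 SD of their difference over the libraries. The 3 steps above 1 SD lay between Prosbeta5 and Prosalpha2, between Prosalpha2 and Prosalpha7, and between Rpn12 and Rpn9. Most of the order within the complex was thus not resolved by 3 libraries.

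**Figure D1:**
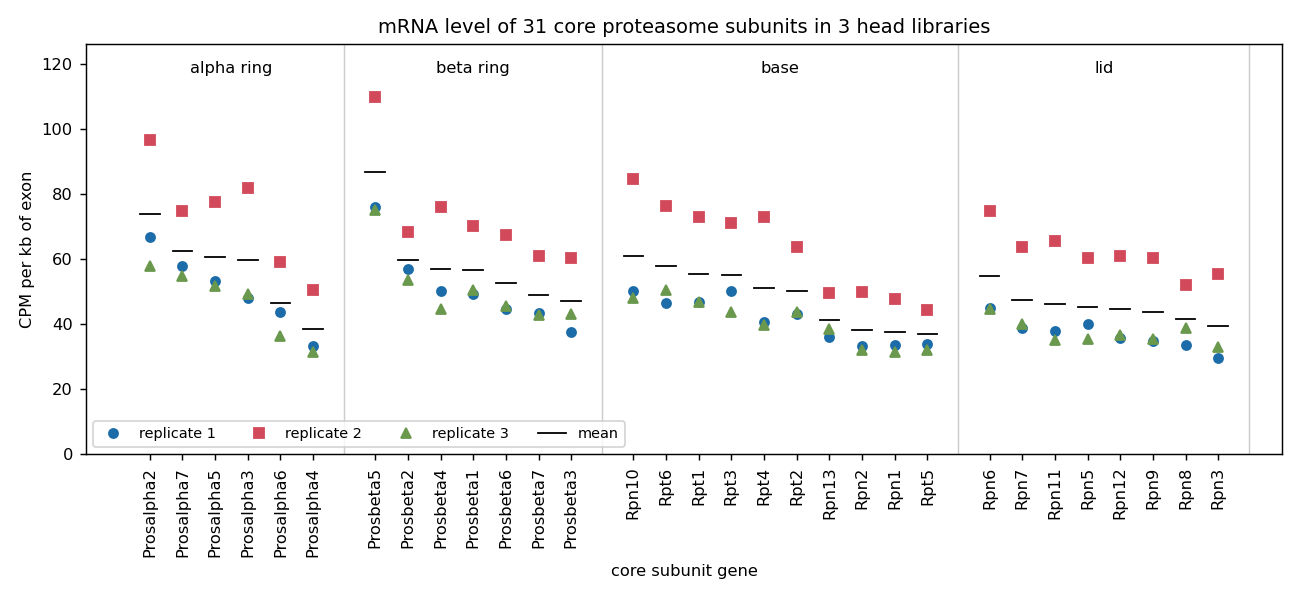
Level of each counted core subunit in CPM per kb of exon (vertical axis, linear, from 0), grouped by sub-complex. Symbols are the 3 libraries and bars their mean. Replicate 2 is the highest of the 3 libraries for all 31 genes, and replicates 1 and 3 lie close together.

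The alpha ring genes encode the outer rings of the barrel, and those counted lay between 38.3 ± 10.5 CPM per kb for Prosalpha4 and 73.6 ± 20.3 CPM per kb for Prosalpha2 (SD, n = 3). Prosalpha2 had 61.4, 88.7 and 53.0 CPM in replicates 1, 2 and 3. Prosalpha4, which is X-linked, had 38.9, 59.2 and 37.0 CPM. Prosalpha3, the subunit whose yeast counterpart has a leading part in closing the gate of the barrel, had 46.7, 79.5 and 47.9 CPM in the same order of libraries. In each of these genes replicate 2 was the highest library. Prosalpha5 had 50.2, 73.1 and 48.7 CPM. Prosalpha6 had 46.6, 63.3 and 38.9 CPM. Prosalpha7 had 56.5, 72.8 and 53.5 CPM, the narrowest spread of the ring. All 6 counted alpha genes showed the same pattern, with replicate 2 above both other libraries and replicates 1 and 3 nearer to each other than to it.

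The beta ring holds the proteolytic sites. Prosbeta5, the subunit with the chymotrypsin-like site, was the highest of all core subunits per kb and had 86.3, 125 and 85.2 CPM in replicates 1, 2 and 3. Prosbeta1, with the caspase-like site, had 41.8, 59.6 and 42.9 CPM. Prosbeta2, with the trypsin-like site, had 58.8, 70.6 and 55.4 CPM. Per kb, Prosbeta1 and Prosbeta2 averaged 56.4 ± 11.7 CPM per kb and 59.6 ± 7.72 CPM per kb (SD, n = 3). The catalytic genes were therefore not one level, and Prosbeta5 stood above the other two in every library. The remaining beta subunits have no proteolytic site of their own. Prosbeta3, the lowest of the ring at 46.9 ± 11.9 CPM per kb, had 34.2, 55.1 and 39.2 CPM. Prosbeta4 had 40.8, 61.9 and 36.4 CPM. Prosbeta6 and Prosbeta7 are structural partners in the ring as well. Prosbeta6 had 42.0, 63.4 and 43.0 CPM, and Prosbeta7 had 52.6, 74.0 and 51.8 CPM. Again replicate 2 was the highest for each of the 7 genes.

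In the base, the ATPases Rpt1 to Rpt6 form the ring that unfolds the substrate. Rpt6 had 65.2, 107 and 70.8 CPM in replicates 1, 2 and 3. Rpt4 had 59.4, 107 and 58.3 CPM. Rpt5, the lowest core subunit per kb, had 55.2, 72.1 and 52.2 CPM. The ring of ATPases did not share one level, since Rpt5 lay below every other Rpt gene per kb in all 3 libraries. Rpt1 had 70.6, 110.2 and 70.8 CPM. Rpt2 had 69.7, 104 and 70.8 CPM. Rpt3 had 77.8, 110.4 and 67.8 CPM, and like Rpt4 and Rpt6 it lies on the X. Rpn1 and Rpn2 are the large scaffold proteins of the base, and they were the highest of the base in CPM but among its lowest genes per kb. Rpn1 had 102, 145 and 95.1 CPM and averaged 37.5 ± 8.79 CPM per kb (SD, n = 3). Rpn2 had 113, 169 and 109 CPM and averaged 38.2 ± 9.92 CPM per kb. The ubiquitin receptors Rpn10 and Rpn13 differed in level. Rpn10, the highest of the base per kb at 60.8 ± 20.5 CPM per kb, had 71.2, 120.2 and 68.3 CPM. Rpn13 had 60.4, 82.7 and 64.1 CPM and averaged 41.3 ± 7.16 CPM per kb. Rpn10 was the higher of the 2 receptors per kb in every library.

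Per kb the lid had the narrowest range of the 4 sub-complexes, 1.39-fold, between 39.2 ± 14.0 CPM per kb for Rpn3 and 54.6 ± 17.3 CPM per kb for Rpn6 (SD, n = 3). Rpn11, the metalloprotease that cuts the ubiquitin chain from the substrate, had 45.5, 79.1 and 42.4 CPM in replicates 1, 2 and 3. Rpn8, its structural partner without catalytic activity, had 51.5, 79.5 and 59.4 CPM. The other lid subunits counted here are scaffold proteins. Rpn3 had 54.0, 101 and 60.2 CPM. Rpn6, which in yeast and human particles braces the lid against the alpha ring, had 87.0, 145 and 86.5 CPM. Rpn5 and Rpn7 belong to the same scaffold. Rpn5 had 75.6, 114 and 67.3 CPM, and Rpn7 had 53.8, 88.4 and 55.7 CPM. Rpn9 had 58.3, 101 and 59.4 CPM, and Rpn12 had 35.4, 60.7 and 36.5 CPM. In all 8 lid genes replicate 2 lay above both other libraries. Without division by length the range of the lid was 2.40-fold, the widest of the 4 sub-complexes.

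The 4 sub-complexes were compared by the median log2 CPM per kb of their genes within each library. The lid lay below the base by -0.18 ± 0.029 (SD, n = 3), below the beta ring by -0.31 ± 0.13 and below the alpha ring by -0.42 ± 0.087, each as lid minus the other. The base minus the beta ring was -0.13 ± 0.11, and the base minus the alpha ring was -0.24 ± 0.058. The beta ring minus the alpha ring was -0.11 ± 0.062. Each of the 6 differences had the same sign in 3 of 3 libraries, but the two-sided exact sign-flip permutation test gave p = 0.25 for each (adjusted p = 0.25 over the 6 pairs), the smallest value that 3 libraries allow. Without the division by length the lid and base lay above both rings. Taken as a mean over subunits, the beta ring minus the alpha ring was 0.047. The order of lid and base against the rings thus depends on how length is treated. Between the rings, the order depends on how the subunits are summarised. The lid lay below the base in every setting tried, by -0.09 as a mean over subunits and by -0.27 without division by length.

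Replicate 2 differed from the other libraries across the whole particle. All 31 counted core subunits had their highest CPM in replicate 2. Of all 9049 genes tested, 46.8% were highest there. For 31 of 31 core subunits the 95% Wilson interval in replicate 2 lay above the intervals of both other libraries. This held for 6.76% of the genes tested, and for 8.75% of the 2332 genes tested within the same range of mean CPM. The log2 difference between replicate 2 and the mean of replicates 1 and 3 had a median of 0.61 over the core subunits, or 1.53-fold, and a range from 0.31 for Prosbeta2 to 0.86 for Rpt4. Over all genes tested the median was 0.06 and the 5th to 95th percentiles were -0.29 to 0.49. A difference at least as large as that of Prosbeta2 was found in 14.1% of the genes tested, and one at least as large as the core median in 2.96%. In whole-head RNA, more cells with many proteasome mRNAs and more of these mRNAs per cell cannot be told apart.

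Between the other libraries the core subunits differed little. Replicate 1 minus replicate 3 had a median of 0.02 on the log2 scale, with a range from -0.21 to 0.26, and replicate 1 was the higher in 18 of 31 genes. These 18 were lowest in replicate 3, where 38.6% of the genes tested were lowest, and the other 13 were lowest in replicate 1, where 35.3% were. The corresponding 5th to 95th percentiles over all genes tested were -0.36 to 0.43.

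**Figure D2:**
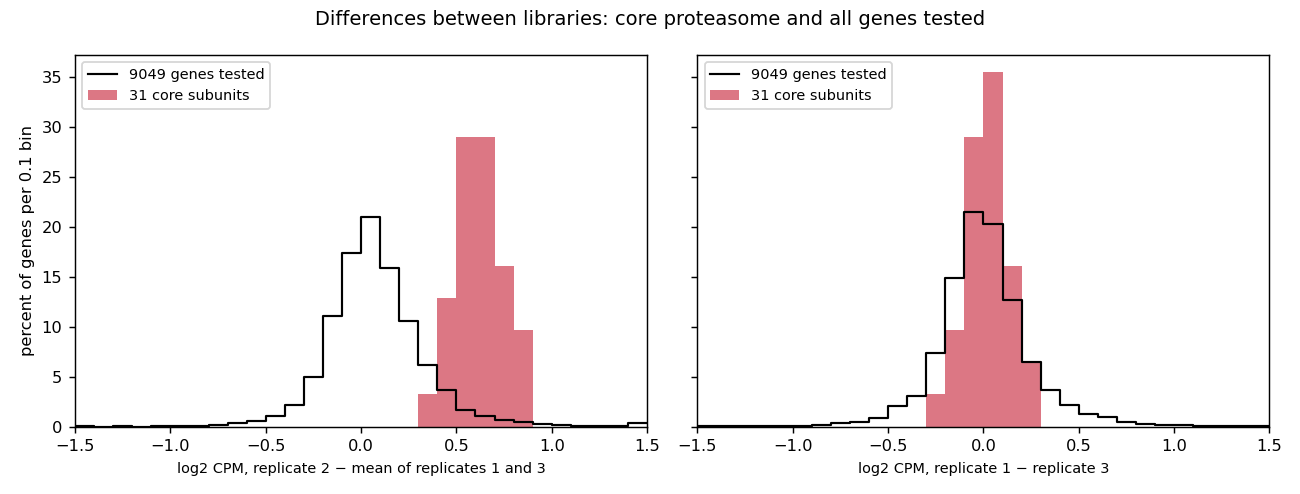
Percent of genes per bin of 0.1 (vertical axis) by difference in log2 CPM between libraries (horizontal axis), for the 31 core subunits (filled bars) and all 9049 genes tested (line); values outside the axis are in the end bins. Left, replicate 2 minus the mean of replicates 1 and 3, where the core subunits lie between 0.31 and 0.86. Right, replicate 1 minus replicate 3, where they centre on 0.02.

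The size of the difference varied between groups of subunits. Its median was 0.75 in the lid, 0.61 in the base, 0.60 in the alpha ring and 0.54 in the beta ring. In the lid it was 0.85 for Rpn11, 0.83 for Rpn3, 0.78 for Rpn9, 0.75 for Rpn12, 0.74 for Rpn6, 0.69 for Rpn7, 0.68 for Rpn5 and 0.52 for Rpn8. In the base it was 0.86 for Rpt4 and 0.79 for Rpn10, and it lay between 0.41 and 0.65 for the other 8 genes. The ubiquitin receptors were apart here too, since Rpn13 had the lowest value of the base. In the alpha ring the difference lay between 0.40 for Prosalpha7 and 0.75 for Prosalpha3. In the beta ring it lay between 0.31 for Prosbeta2 and 0.68 for Prosbeta4. The differences between these medians were not tested.

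Whether a gene varied more between replicates than its abundance would predict was tested with edgeR over all genes that passed its filter on low counts. All 31 counted core subunits passed. None was called after Benjamini-Hochberg adjustment (0 of 31), while 29 of 9049 genes were (0.320%). The unadjusted edgeR p was under 0.05 for 27 of 31 core subunits, against 4.64% of the genes tested. The exceptions were Prosalpha7, Prosbeta2, Rpn13 and Rpt5. Rpt4 had the smallest edgeR p, 0.00156, with an adjusted p of 0.205. For Rpn3 the edgeR p was 0.00184 and its adjusted p 0.238. For Rpn11 the edgeR p was 0.00199 and its adjusted p 0.254. No single subunit therefore passed the threshold, although nearly all lay in the same tail. Genes that share 3 libraries are not independent, so the count of 27 is a description. Without replicate 2 no core subunit had an unadjusted p under 0.05, against 6.07% of the genes then tested, and none was called, against 0.627%. Without replicate 1 none was called either, against 0.607% of genes, and 27 had an unadjusted edgeR p under 0.05, against 5.43%. The calls depended on the filter. With every gene of at least 1 count tested, edgeR called 8 of 37 members, which were Rpt4, Rpn3, Rpn11, Rpn10, Rpn9, Rpn6, Prosalpha3 and Rpn12, and 118 of 12909 genes (0.914%). DESeq2 marked 3 of 37 members with a count as dispersion outliers, which were Rpn10, Rpn3 and Rpt4, and 113 of 12909 genes (0.875%). Without replicate 3, edgeR called Rpt4 and Rpn3, 2 of 31 core subunits, and 44 of 9182 genes (0.479%), and 28 core subunits had an unadjusted p under 0.05, against 5.41% of genes.

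Genes that work with the particle were compared with it, from a list of 19, of which 18 were matched. Of these, 15 had their highest CPM in replicate 2, where 46.8% of all genes tested were highest. The median log2 difference of replicate 2 was 0.15, against 0.06 over all genes tested. The genes bound to the cap lay within the range of the core subunits. Usp14, a deubiquitinase that docks on the base, had 49.0, 70.3 and 46.4 CPM in replicates 1, 2 and 3, a log2 difference of 0.56. Uch-L5, the deubiquitinase held by Rpn13, had 11.6, 16.7 and 9.52 CPM, a difference of 0.66. Sem1, a small protein of the lid whose symbol the rule did not take, had 29.2, 41.8 and 25.7 CPM, a difference of 0.61. All 3 were thus highest in replicate 2 by about as much as the core subunits.

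Other related genes differed less between the libraries. Pomp, the chaperone that matures the 20S barrel, had 40.8, 51.7 and 36.4 CPM in replicates 1, 2 and 3, a log2 difference of 0.42. REG, an activator that caps the barrel in place of the 19S cap, had 56.8, 61.9 and 46.8 CPM, a difference of 0.26. Ufd1, one of the shuttle and unfoldase genes of the list, had 28.6, 40.4 and 33.7 CPM, a difference of 0.38. The other matched genes of that kind differed less, by 0.22 for Npl4, 0.12 for Rad23 and 0.09 for Ubqn. Npl4 was highest in replicate 3. Pomp and Ufd1 lay at the low end of the core range and REG below it. Of the 18 related genes, 5 lay at or above the lowest core subunit, against 14.1% of all genes tested. They were Usp14, Uch-L5, Sem1, Pomp and Ufd1. Per kb, the core subunits had a median of 50.5 ± 12.9 CPM, against 221 ± 9.08 CPM for the ubiquitin list (SD, n = 3). That list held 5 genes, Uba1 included, and was wide. It ran from 59.7 CPM per kb for Uba1 to 1383 CPM per kb for RpS27A. Ubi-p5E, which encodes a polyubiquitin, had 547, 531 and 504 CPM, a difference of 0.02. Ubi-p63E, the other polyubiquitin gene, had 252, 268 and 262 CPM, a difference of 0.06. The polyubiquitin genes did not share the pattern of the particle. RpS27A and RpL40 encode ubiquitin fused to a ribosomal protein. RpS27A had 793, 915 and 748 CPM, a difference of 0.25. RpL40 had 597, 689 and 616 CPM, a difference of 0.18. Uba1, the enzyme that activates ubiquitin, had 245, 273 and 259 CPM, a difference of 0.12. These values lay below the lowest core subunit. The transcription factor gene cnc, whose product is related to mammalian factors that drive proteasome genes, had 245, 257 and 257 CPM, a difference of 0.04. The lowest difference of the list was that of ntc, which encodes an F-box protein (6.72, 6.12 and 7.62 CPM, -0.22). None of these differences from the core subunits was tested.

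**Figure D3:**
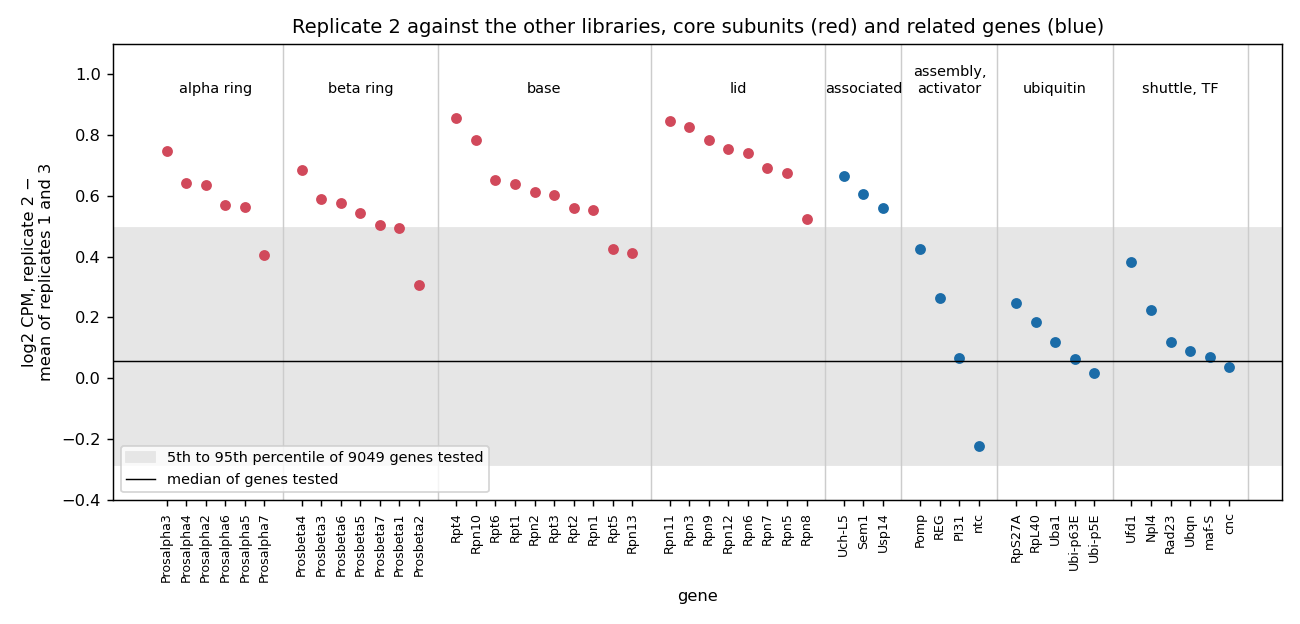
Difference in log2 CPM between replicate 2 and the mean of replicates 1 and 3 (vertical axis) for each core subunit (red) and related gene (blue); the grey band spans the 5th to 95th percentile of the 9049 genes tested and the line is their median of 0.06. All core subunits lie above the line, and Usp14, Uch-L5 and Sem1 lie among them.

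Some other features of the libraries also differed in replicate 2. The share of counts from mitochondrial genes was 3.88% in replicate 2, against 7.20% and 6.62% in replicates 1 and 3. The genes Yp1, Yp2 and Yp3, which encode yolk proteins of the female fat body, summed to 25172 CPM in replicate 2, against 16063 and 17930.0 CPM in replicates 1 and 3, and their log2 differences lay between 0.45 and 0.61. All 6 neuronal markers were detected, and they summed to 4001 CPM in replicate 2, against 4442 and 4700 CPM, with a median log2 difference of -0.15. The 6 photoreceptor markers, high in every library of these heads, summed to 49070.3 CPM, against 46372 and 48404 CPM. Their median log2 difference was -0.003, and 3 of the 6 were highest in replicate 2, so they did not move as a set. The part of these features in the result was not tested. With mitochondrial genes left out of the library totals, all 31 core subunits were still highest in replicate 2, with a median log2 difference of 0.57.

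The paralogues were almost without counts in heads. Of the 16, 10 had no count in any library, against 26.5% of all genes in the table, and 5 had between 1 and 9 counts in sum. Only Rpt6R reached the 10 counts in sum that were taken as detection, a level met by 57.5% of all genes. The genes with 0 counts were Prosalpha3T, Prosalpha4T1, Prosalpha6T, Prosbeta2R2, Prosbeta4R1, Prosbeta4R2, Prosbeta5R1, Prosbeta5R2, Rpn12R and Rpt4R. With 3 counts over all libraries as the limit that a count of 0 allows, their parents had counts at least 324-fold higher (Rpn12 over Rpn12R) to at least 725-fold higher (Prosbeta5 over Prosbeta5R1 and over Prosbeta5R2).

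Few counts fell on the next 5 genes. Prosalpha4T2 had 0, 1 and 4 counts in replicates 1, 2 and 3, beside 324, 435 and 233 counts of its parent Prosalpha4. Rpt3R had 2, 2 and 0 counts, beside 648, 811 and 427 counts of Rpt3. Rpn13R had 0, 1 and 1 counts, beside 503, 608 and 404 counts of Rpn13. At this depth no order between the libraries could be read for any of them. Prosbeta2R1 had 0, 0 and 1 counts, beside 490, 519 and 349 counts of Prosbeta2. As a share of the summed counts of paralogue and parent, Prosalpha4T2 took 0.502% (95% Wilson interval 0.214% to 1.17%), Rpt3R 0.212%, Rpn13R 0.132% and Prosbeta2R1 0.0736%. Prosalpha1R, the remaining gene, is described with Prosalpha1.

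Rpt6R (FBgn0039788, chr3R:30582198-30583697 on the minus strand, dm6) is the paralogue of the ATPase Rpt6 (FBgn0020369, chrX:21316052-21317663 on the plus strand). It had 1, 17 and 2 counts in replicates 1, 2 and 3, beside 543, 785 and 446 counts of Rpt6. Nearly all its counts were thus in replicate 2, the library in which the core subunits were highest. Rpt6R took 0.184% of the counts of the pair in replicate 1 (95% Wilson interval 0.0325% to 1.03%), 2.12% in replicate 2 (1.33% to 3.37%) and 0.446% in replicate 3 (0.123% to 1.61%). Rpt6R reached 10 counts in sum only through replicate 2, so these shares are a description, and their intervals cover counting error alone. Per kb, log2 of Rpt6R over Rpt6 averaged -7.20 ± 1.53 (SD, n = 3; exact sign-flip permutation test, two-sided p = 0.25, the smallest possible), with 0.5 count added to each gene. This ratio is a description too, since it leans on the added 0.5 count in replicates 1 and 3. Its test decides nothing, because 3 libraries of the same sign always give that p. Rpt6R did not pass the edgeR filter on low counts. Without replicate 2, no paralogue was detected.

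**Figure D4:**
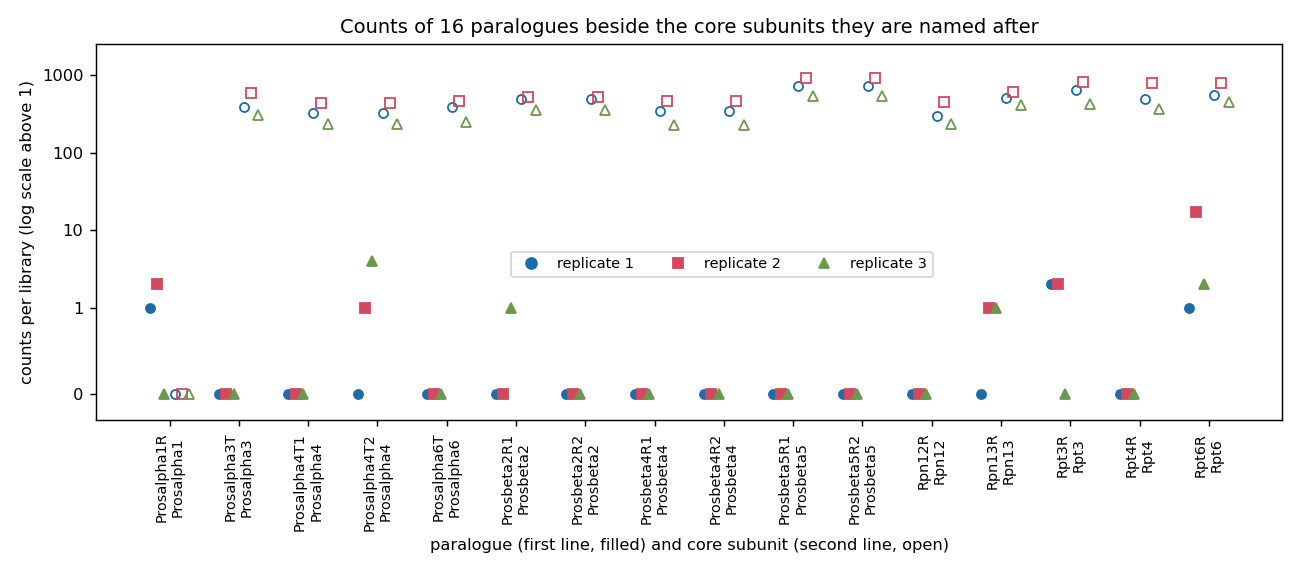
Counts in each library (vertical axis, logarithmic above 1 and linear from 0 to 1) of the 16 paralogues (filled symbols, first name) and of the core subunits they are named after (open symbols, second name). Except for Prosalpha1, with 0 counts, the core subunits lie at 229 counts or more in every library, and Rpt6R in replicate 2 is the one paralogue value above 10.

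Since many of the paralogues are known from testis, markers of that tissue were read in the same libraries. Of 29 listed, 26 were matched. Of these, 16 had a count in replicate 2, against 5 and 6 in replicates 1 and 3, while the list summed to 11.6 CPM in replicate 2, against 10.6 and 7.78 CPM. Most of that sum came from mia and topi, regulators of the spermatocyte programme. The gene topi had 41, 20 and 19 counts in replicates 1, 2 and 3, and mia had 28, 12 and 20 counts. These 2 genes were not highest in replicate 2. The testis beta-tubulin betaTub85D had 12, 15 and 6 counts. Without mia and topi, left out after their values were seen, the list had 53 counts (7.21 CPM) in replicate 2, against 19 counts (2.28 CPM) in replicate 1 and 10 counts (1.59 CPM) in replicate 3.

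Several testis markers of the list had counts in replicate 2 alone, named here after their values were seen. They were loopin-1 with 6 counts, ocn and Mst84Da with 5 each, and dj with 3. Mst84Db, Mst84Dd, Mst98Cb and can had 2 counts each there, and janB and kl-3 had 1 each. Other markers of the list did not share this: fzo had 3, 3 and 2 counts in replicates 1, 2 and 3. Cyt-c-d had 4, 4 and 1 counts and Mst87F had 0, 2 and 1 counts in the same order. The markers djl, aly, sa, comr, nht, bam, kl-2 and kl-5 were at 0 in every library, as were Mst84Dc and Mst98Ca. The 4 matched ovary markers had 1, 3 and 3 counts in replicates 1, 2 and 3. The markers with counts in replicate 2 alone thus had them in the library that held 17 of the 20 Rpt6R counts. Their part in the Rpt6R counts was not tested.

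**Figure D5:**
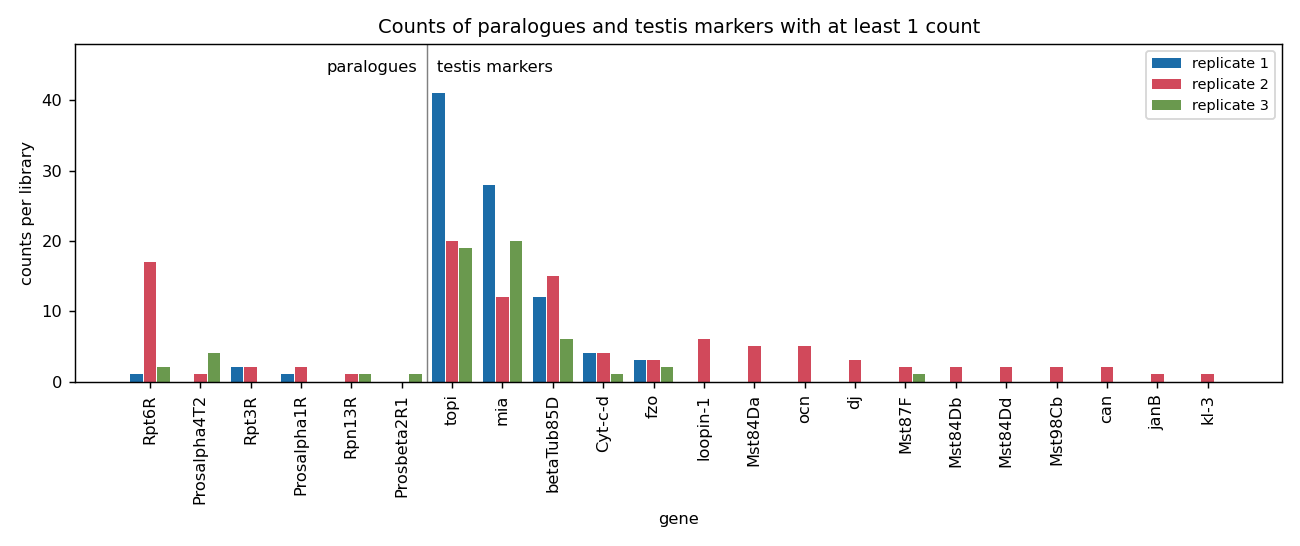
Counts in each library (vertical axis, linear, from 0) of the 6 paralogues and the 16 testis markers that had any. Rpt6R, loopin-1, Mst84Da, ocn, dj, Mst84Db, Mst84Dd, Mst98Cb, Mst87F, can, janB and kl-3 have most or all of their counts in replicate 2. In contrast, topi, mia, betaTub85D, Cyt-c-d and fzo have counts in every library.

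Prosalpha1 (FBgn0263121, chr2R:7827303-7828678) and Prosalpha1R (FBgn0050382, chr2R:7830413-7831771) lie on the same strand of dm6 with 1734 bp between them. Prosalpha1 had 0 counts in all 3 libraries, and Prosalpha1R had 1, 2 and 0 counts in replicates 1, 2 and 3. Both genes have 3 coding exons, and these have the same lengths in both, 76, 177 and 479 bp. Every other alpha subunit had at least 233 counts in each library. How reads that map to several places were handled is not given in the sources used here, so the counts of this pair are uncertain. The low values cannot be read as a lack of the transcript.

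Gene structure and position were not used by the rule. Of the 4 core subunits on the X (Prosalpha4, Rpt3, Rpt4 and Rpt6), all 4 have a paralogue, and the 5 paralogues of these genes are all autosomal. Of the 28 autosomal core subunits, 8 have a paralogue, and of their 11 paralogues Prosbeta2R1 and Rpn13R are on the X. A single coding exon was annotated for 6 of 16 paralogues and for 4 of 32 core subunits. In 5 of these 6 paralogues (Prosalpha3T, Prosalpha4T1, Prosalpha6T, Prosbeta5R2 and Rpn13R) the parent has more than 1 coding exon. Rpt6R itself has 2 coding exons, against 3 in Rpt6. Exons of 13 core subunits overlap those of a gene on the opposite strand, by at most 15.7% of their length (Rpn9), and the strand setting of the counting is not given in the sources used here. No core subunit overlaps a gene on its own strand.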

How the data were processed

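Heads of wild type flies were sequenced in 3 libraries (150 ng of total RNA each, TruSeq Stranded mRNA kit). The authors deposited raw counts per FlyBase gene, without normalisation. The submitters' processing notes name STAR 2.7.4a, featureCounts of Subread and dm6, and the methods name snakePipes with Ensembl release 96. Whether counting used strand, and what became of reads that map to several places, is not given in the sources used here.

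Symbols, exons and positions came from Ensembl release 115 (dm6 coordinates), which matched 17252 of 17558 IDs. The symbols Mst35Ba, Mst35Bb, vas, nos and TER94 were not matched. CPM was taken over all counts of a library and divided by the union of exons in kb. Detection meant at least 10 counts in sum, and the floor was 3 counts. Log2 differences used 0.5 count added. Variability was fitted with edgeR 4.0.16 (R 4.3.3; TMM, filterByExpr, intercept only). The quasi-dispersion was set against its prior by the upper tail of F, with Benjamini-Hochberg adjustment over 9049 genes and a threshold of 0.05. DESeq2 1.42.0 was an alternative.

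The members, gene lists and tests were chosen with earlier results of these data known. The yolk list and the other complexes were added after the values were seen. Named were all counted core subunits, paralogues with their parents, selected related genes, and testis markers with at least 10 counts. Other testis markers were named after their values were seen.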

Additional observations from a re-analysis of the deposited data

How the results depend on the processing

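Of 110 alternative values for 17 results, 93 kept their direction and size class. Without division by length, the lid minus the beta ring was 0.47, the lid minus the alpha ring 0.28, the base minus the beta ring 0.73 and the base minus the alpha ring 0.54 (log2 CPM), all reversed. As a mean over subunits, the beta ring minus the alpha ring was 0.047, also reversed. The SD of log2 levels over core subunits was 0.33 per kb of coding length, 0.42 without division by length and 0.26 without subunits whose exons overlap another gene, the last chosen after seeing the data. The median of the related genes was 73.5 CPM without division by length and 42.8 CPM per kb with it. These are different units, so the change in value is no change in the result.

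The count of members called by edgeR was 8 of 37 without the filter on low counts (0.914% of all genes tested), and DESeq2 marked 3 of 37 (0.875%). Leaving out 1 library at a time gave 0 to 2 called members (0.479% to 0.627% of all genes), and 0 to 28 with an unadjusted edgeR p under 0.05 (5.41% to 6.07% of all genes), the 0 without replicate 2. Detected paralogues numbered 6 with at least 1 count in sum, 0 with at least 10 counts in every library, and 0 to 1 with 1 library left out, the 0 without replicate 2. The summed testis markers were 3.69 CPM without mia and topi, chosen after seeing the data, against 9.97 CPM. Under TMM scaling and DESeq2 size factors, also added after seeing the data, all 31 core subunits were still highest in replicate 2, with median log2 differences of 0.56 and 0.55. Paralogues with a few counts are limited by depth, since 1 count was worth 0.120 to 0.159 CPM. No paired analysis was possible because the design has no second group whose replicate numbers could be matched.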

Other observations

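The pattern of replicate 2 was also read in the subunits of other large complexes, chosen after the values of the proteasome were seen. The cytosolic chaperonin CCT, which folds actin and tubulin, had a median log2 difference of 0.37 between replicate 2 and the mean of replicates 1 and 3, and all 7 of its subunits tested were highest in replicate 2. Their values lay between 0.27 and 0.45. Of the cytosolic ribosomal protein genes, all 74 tested were highest in replicate 2 as well, but the difference was smaller, with a median of 0.23 and a range from 0.03 to 0.34. The vacuolar ATPase, the proton pump of lysosomes and synaptic vesicles, had a median of 0.00 over 16 tested genes, of which 3 were highest in replicate 2. Of all genes tested, 46.8% were highest there. The range of the core proteasome, 0.31 to 0.86, overlapped those of CCT and the ribosomal proteins and lay above that of the vacuolar ATPase, which ended at 0.07. The differences between complexes were not tested.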
